A study of Mus musculus with 12 samples.

Results

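The p53 targets and apoptosis genes described here are 39 genes chosen by symbol from the gene count table of cultured mouse neural stem cells (NSCs). They are 39 of the 17365 genes in that table, and all 39 passed the filter on low counts that 13454 genes passed in all. The group holds p53 itself, its main regulators, genes of growth arrest, stress protection and DNA repair, and the receptors, Bcl2 family proteins and caspase machinery of apoptosis. Many of these are known p53 targets, but not every member is an established p53 target in mouse. The question put to the data was how their RNA levels stood in proliferating NSCs and in the dormant and primed quiescent states.

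Adult NSCs came from the subventricular zone of young mice aged 6 to 8 weeks and were grown without serum in EGF and FGF2 on laminin. Every condition used 2 cell lines, ANS4 from MF1 mice and BL6 from C57BL/6 mice, each with 2 replicates, so that 12 libraries gave 4 per condition. EGF/FGF libraries came from proliferating cells, BMP libraries from cells given BMP4 without FGF2 (dormant quiescent NSCs, d-qNSCs), and BMP/FGF libraries from cells given BMP4 with FGF2 (primed quiescent NSCs, p-qNSCs). The study withdrew EGF to induce both quiescent states. BMP therefore differs from EGF/FGF in BMP4, EGF and FGF2, and BMP/FGF differs from it in BMP4 and EGF. In those comparisons the parts of the single factors cannot be told apart. Treatments lasted 3 days, with each factor at 10 ng/ml. Each strain is represented by 1 line, so a difference between lines cannot be told apart from a difference between strains. The study calls its replicates biological, but the labels do not say whether they were separate cultures, so p-values measure the spread between these libraries, which may be partly technical.

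As background, p53 is a transcription factor held at a low level by the ubiquitin ligase Mdm2 and its relative Mdm4. DNA damage and other stresses relieve that block, and p53 then binds paired half-sites near its target genes, among them genes that halt the cell cycle, repair DNA or start apoptosis. Much of p53 control acts on the protein, which RNA-seq does not measure. Apoptosis through mitochondria is set by the balance of Bcl2 family members: Bax and Bak1 open pores, BH3-only proteins such as Bbc3 (Puma), Pmaip1 (Noxa) and Bcl2l11 (Bim) promote this, and Bcl2, Bcl2l1 and Mcl1 prevent it. Released cytochrome c then assembles Apaf1 and Casp9 into the apoptosome, while Fas and Tnfrsf10b start the same end from the cell surface. In the adult brain, p53 is known as a brake on NSC self-renewal.

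The RefSeq promoter windows (GRCm38.p6) of 5 members hold letters close to the p53 consensus element, and these stretches are shown because they place members that behaved differently side by side. Each window spans 250 bases before to 50 bases after an annotated start. The search compared 20 letters, a pair of adjacent decamers with no spacer, required the central C and G of each decamer and allowed 3 mismatches. The element reads the same on both strands, so 1 pass covers both. Of the 31 members with a window, 5 (16.1%) held a match, against 441 of 27025 genes (1.63%). Many members were listed as known p53 targets, so a share above that of all genes is not an independent result. Zmat3, Rrm2b, Ddb2, Xpc, Pmaip1, Tnfrsf10b, Trp53inp1 and Perp had no entry. A match is a description of letters and not a bound site. Capitals mark the 20 letters compared, and 5 bases on each side are in lower case, 5′ to 3′ on the strand of the gene.
Ccng1: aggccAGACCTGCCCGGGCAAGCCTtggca
Trp53: cggaaGGACTTGCCCTTACTTGTTAtggcg
Sesn1: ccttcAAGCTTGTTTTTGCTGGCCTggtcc
Bbc3: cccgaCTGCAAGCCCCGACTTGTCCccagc
Aen: aagccGGGCTTGTCCGGGCAAGGAGcttcc
The Ccng1 stretch matched at 19 of 20 letters and the others at 17. On the minus strand, the Ccng1 letters lie at chr11:40755462-40755481, upstream of the gene, and end 176 bases before the RefSeq start. All others lie on the plus strand. Those of Trp53 at chr11:69580284-69580303 end 56 bases before its start, upstream of all 6 GENCODE transcripts. Those of Sesn1 at chr10:41887266-41887285 lie in an intron of 1 of its 3 transcripts and 154 bases before a downstream start. Those of Bbc3 at chr7:16309486-16309505 lie in an intron of 1 of 4 transcripts and 78 bases before the RefSeq start. Those of Aen at chr7:78895937-78895956 begin 10 bases after the start, in an exon of 3 of 9 transcripts. Among these 5, Ccng1, Aen and Trp53 were lower in BMP than in EGF/FGF, Sesn1 was higher and Bbc3 was not called, as the values below show.

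Library totals ran from 18069052 to 19451818 estimated counts, so that depth differed little between libraries. Levels are given as counts scaled to the library total (CPM). Fold changes are log2 values from edgeR's quasi-likelihood fit of condition and line over all 12 libraries. Standard errors were derived from the F-test of that fit, as the absolute log2 fold change over the square root of F. FDR is the Benjamini-Hochberg adjusted p of the F-test over the 13454 genes tested. Genes with FDR under 0.05 were called. All 8 NSC markers examined were detected, with a summed level of 7343 to 7847 CPM in EGF/FGF, 9453 to 10423 CPM in BMP and 11007 to 11387 CPM in BMP/FGF. The 6 proliferation markers summed to 2317 to 2794 CPM, 396 to 597 CPM and 277 to 299.7 CPM in the same order. Sums of 6 neuron or neuroblast markers were 561 to 589 CPM, 1127 to 1799 CPM and 848 to 928 CPM. The 6 oligodendrocyte markers summed to 177 to 219.5 CPM, 624 to 689 CPM and 673 to 708 CPM, and 4 ependymal markers to 63.1 to 77.6 CPM, 197 to 232 CPM and 191 to 208 CPM. Microglial markers summed to at most 3.59 CPM (4 of 8 in the table, without Aif1, Trem2, C1qa and Ptprc, and with 1 at 0 in BMP) and endothelial markers to at most 4.26 CPM (2 of 4, without Cldn5 and Cdh5). The NSC sum was carried by Vim and Slc1a3, while Nes averaged 570.4 CPM in EGF/FGF, 128 CPM in BMP and 114 CPM in BMP/FGF, and Fabp7 averaged 2413 CPM, 480.1 CPM and 1364 CPM. The NSC, proliferation, neuron, oligodendrocyte and ependymal sums moved with condition, and their part in the results below was not tested.

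Against EGF/FGF, most members were lower in BMP. In that comparison 24 of 39 members (61.5%) fell, 13 (33.3%) rose and 2, Bbc3 and Ei24, were not called. Over all genes tested, 38.7% were called lower and 40.6% higher. The median log2 fold change of the members was -0.55, beside 0.02 over all genes. In BMP/FGF against EGF/FGF, 24 members fell, 11 rose and 4 (Ppm1d, Bbc3, Bcl2l1 and Ei24) were not called, against 37.8% of all genes lower and 40.8% higher, with a median of -0.38. Between BMP/FGF and BMP, 13 members (33.3%) rose, 3 (7.69%) fell and 23 were not called, where 19.9% of all genes rose and 21.2% fell, and the median member difference was 0.04, beside -0.004 over all genes. Those that rose were Ccng1, Plk3, Phlda3, Gadd45b, Rrm2b, Polk, Bax, Pmaip1, Bcl2, Tnfrsf10b, Eda2r, Trp53inp1 and Aen, and those that fell were Mdm4, Ppm1d and Bcl2l1. All 3 comparisons share libraries in pairs, so their values are given side by side and are not independent. In bulk RNA, fewer cells of a type and less RNA per cell cannot be told apart.

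**Figure D1:**
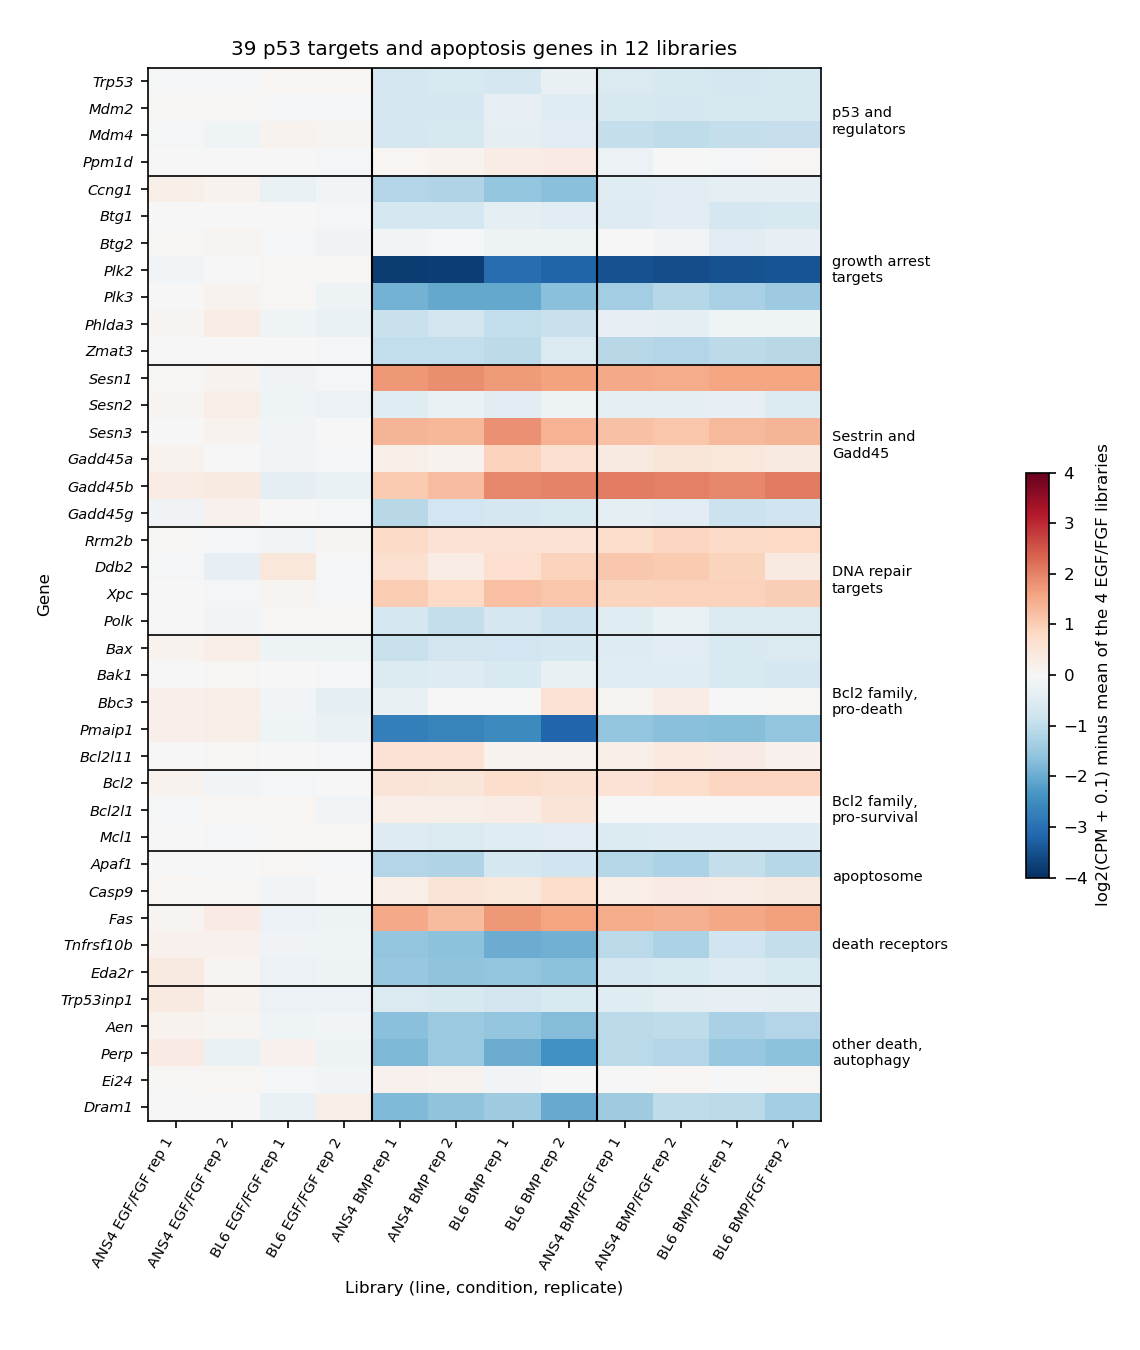
Heat map of the 39 genes (rows, grouped by role) in the 12 libraries (columns, by condition, line and replicate). Colour gives log2(CPM + 0.1) minus the mean of the 4 EGF/FGF libraries, with red higher and blue lower. Plk2 and Pmaip1 are the deepest blue under BMP, whereas Sesn1, Sesn3, Fas and Gadd45b are red in the BMP and BMP/FGF libraries.

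p53 and its 2 main inhibitors were lower in quiescent than in proliferating NSCs. Trp53 RNA stood at 139, 138, 155 and 153 CPM in EGF/FGF, 91.5, 95.1, 89.3 and 118 CPM in BMP and 97.6, 93.8, 91.9 and 92.9 CPM in BMP/FGF, where the first 2 values of each condition are ANS4 replicates 1 and 2 and the last 2 are BL6 replicates 1 and 2. All 8 quiescent libraries were below all 4 EGF/FGF libraries, and 1 BL6 BMP library lay above the other BMP libraries. The log2 fold change was -0.59 ± 0.07 in BMP (FDR = 5.79e-07) and -0.61 ± 0.07 in BMP/FGF (FDR = 4.23e-07), with no call between BMP/FGF and BMP (-0.02 ± 0.07, FDR = 0.86). Where a pair of conditions did not overlap, an exact two-sided permutation test gave p = 0.0286, which is the lower limit with 4 libraries a side.

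Mdm2, which marks p53 for degradation and is itself a p53 target, stood at 91.6, 91.3, 86.4 and 86.2 CPM in EGF/FGF, 56, 54.7, 70.4 and 63.1 CPM in BMP and 56.9, 55.2, 56.8 and 56.4 CPM in BMP/FGF. It fell by 0.57 on the log2 scale in BMP and by 0.63 in BMP/FGF (FDR = 4.07e-07 and 9.86e-08). Mdm4, which masks the activation domain of p53, showed 96.6, 92.1, 114 and 111 CPM in EGF/FGF, 64.8, 65.8, 81.2 and 75.4 CPM in BMP and 52.9, 50.4, 53.8 and 53.9 CPM in BMP/FGF. Its levels descended from EGF/FGF to BMP to BMP/FGF with no overlap between any 2 conditions, and both steps were called (-0.55 ± 0.06, FDR = 7.03e-08, and -0.39 ± 0.06, FDR = 3.79e-05). Ppm1d, a phosphatase that dampens p53 signalling, ranged over 36 to 38.5 CPM in EGF/FGF, 39.4 to 47.7 CPM in BMP and 32.2 to 39.1 CPM in BMP/FGF. Its small rise in BMP (0.19 ± 0.07, FDR = 0.0226) was not called without BL6 EGF/FGF replicate 1, BL6 EGF/FGF replicate 2 or BL6 BMP replicate 2, at 0.14 to 0.17 (FDR = 0.055 to 0.106). Its fall from BMP to BMP/FGF (-0.22 ± 0.07, FDR = 0.0186) was not called without ANS4 or BL6 BMP/FGF replicate 1, at -0.21 to -0.17 (FDR = 0.0513 to 0.0807).

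Members grouped here as growth arrest targets were lower in BMP in 7 of 7 cases, where 38.7% of all genes were. Ccng1, Plk3 and Phlda3 rose in BMP/FGF against BMP, where the other 4 were not called. Cdkn1a, which encodes p21, was not among these members and is on the list of other p53 network genes below. The count depends on this grouping by role. Gadd45a and Gadd45b, which rose in BMP, and Gadd45g, which fell, stand in another group. Ccng1, or cyclin G1, a target that feeds back on Mdm2, stood at 635, 594, 445 and 498 CPM in EGF/FGF, 238, 235, 183 and 167 CPM in BMP and 381, 395, 417 and 421 CPM in BMP/FGF. The 3 conditions did not overlap, with EGF/FGF highest and BMP lowest. Ccng1 was 2.67-fold lower in BMP than in EGF/FGF (-1.42 ± 0.10, FDR = 3.91e-10) and 2.05-fold higher in BMP/FGF than in BMP (1.04 ± 0.10, FDR = 3.99e-07). BMP/FGF was below EGF/FGF (-0.38 ± 0.10, FDR = 0.00186), although BL6 libraries alone gave -0.14 (FDR = 0.109). Among the 31 members with a promoter window, the letters of Ccng1 came closest to the p53 element by the search above. Their part in these changes was not tested.

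The largest fall among the 39 members in BMP was that of Plk2, a polo-like kinase of the stress response. It stood at 191, 202, 212 and 212 CPM in EGF/FGF, 14.5, 14.9, 24.4 and 22.3 CPM in BMP and 18.1, 17.5, 18.2 and 18.6 CPM in BMP/FGF. The 8 quiescent libraries formed a low group with no value near the EGF/FGF libraries. Plk2 was 11-fold lower in BMP (-3.46 ± 0.09, FDR = 1.14e-15) and 11.1-fold lower in BMP/FGF (-3.47 ± 0.09, FDR = 1.36e-15). Its relative Plk3 was measured at lower counts, with 9.51, 10.4, 9.66 and 8.13 CPM in EGF/FGF, 2.47, 2.21, 2.19 and 2.85 CPM in BMP and 3.53, 4.23, 3.8 and 3.38 CPM in BMP/FGF. Plk3 fell in BMP (-1.97 ± 0.13, FDR = 1.94e-10) and rose from BMP to BMP/FGF (0.66 ± 0.15, FDR = 0.00169). For Plk2 the same step was not called (-0.01 ± 0.10, FDR = 0.958).

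Zmat3, a zinc finger RNA-binding protein, stood at 114, 117, 118 and 113 CPM in EGF/FGF, 58.3, 57.8, 55.9 and 76.9 CPM in BMP and 53.7, 51.6, 56.2 and 53.2 CPM in BMP/FGF. It fell in BMP (-0.91 ± 0.08, FDR = 5.65e-09) and in BMP/FGF (-1.08 ± 0.08, FDR = 6.57e-10). The difference between the quiescent states was not called (-0.17 ± 0.08, FDR = 0.105) but passed without BL6 BMP replicate 1, at -0.24 (FDR = 0.0194), and with library size only, at -0.21 (FDR = 0.0458). Phlda3, which blocks Akt at the membrane, ranged over 48.6 to 72 CPM in EGF/FGF, 29.1 to 34.7 CPM in BMP and 44.8 to 51.5 CPM in BMP/FGF, with -0.91 ± 0.10 in BMP (FDR = 2.52e-07) and 0.66 ± 0.10 from BMP to BMP/FGF (FDR = 7.71e-05). Its lower value in BMP/FGF than in EGF/FGF (-0.25 ± 0.10, FDR = 0.0344) was -0.57 (FDR = 1.12e-05) in ANS4 alone and turned to 0.064 (FDR = 0.509) in BL6 alone. That call was also lost without any 1 of the 4 ANS4 EGF/FGF and BMP/FGF libraries, at -0.23 to -0.16 (FDR = 0.0685 to 0.133). The antiproliferative genes Btg1 (105 to 111 CPM in EGF/FGF, 66.7 to 84.4 CPM in BMP and 67.2 to 79.4 CPM in BMP/FGF) and Btg2 (62.6 to 75.2 CPM in EGF/FGF, 59.5 to 66.6 CPM in BMP and 50.8 to 67.5 CPM in BMP/FGF) moved less, with -0.57 ± 0.07 and -0.16 ± 0.06 in BMP. Btg2 levels overlapped between these conditions, and its call was lost in BL6 alone, at -0.17 (FDR = 0.0682), and without the line term, at -0.16 (FDR = 0.0983).

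**Figure D2:**
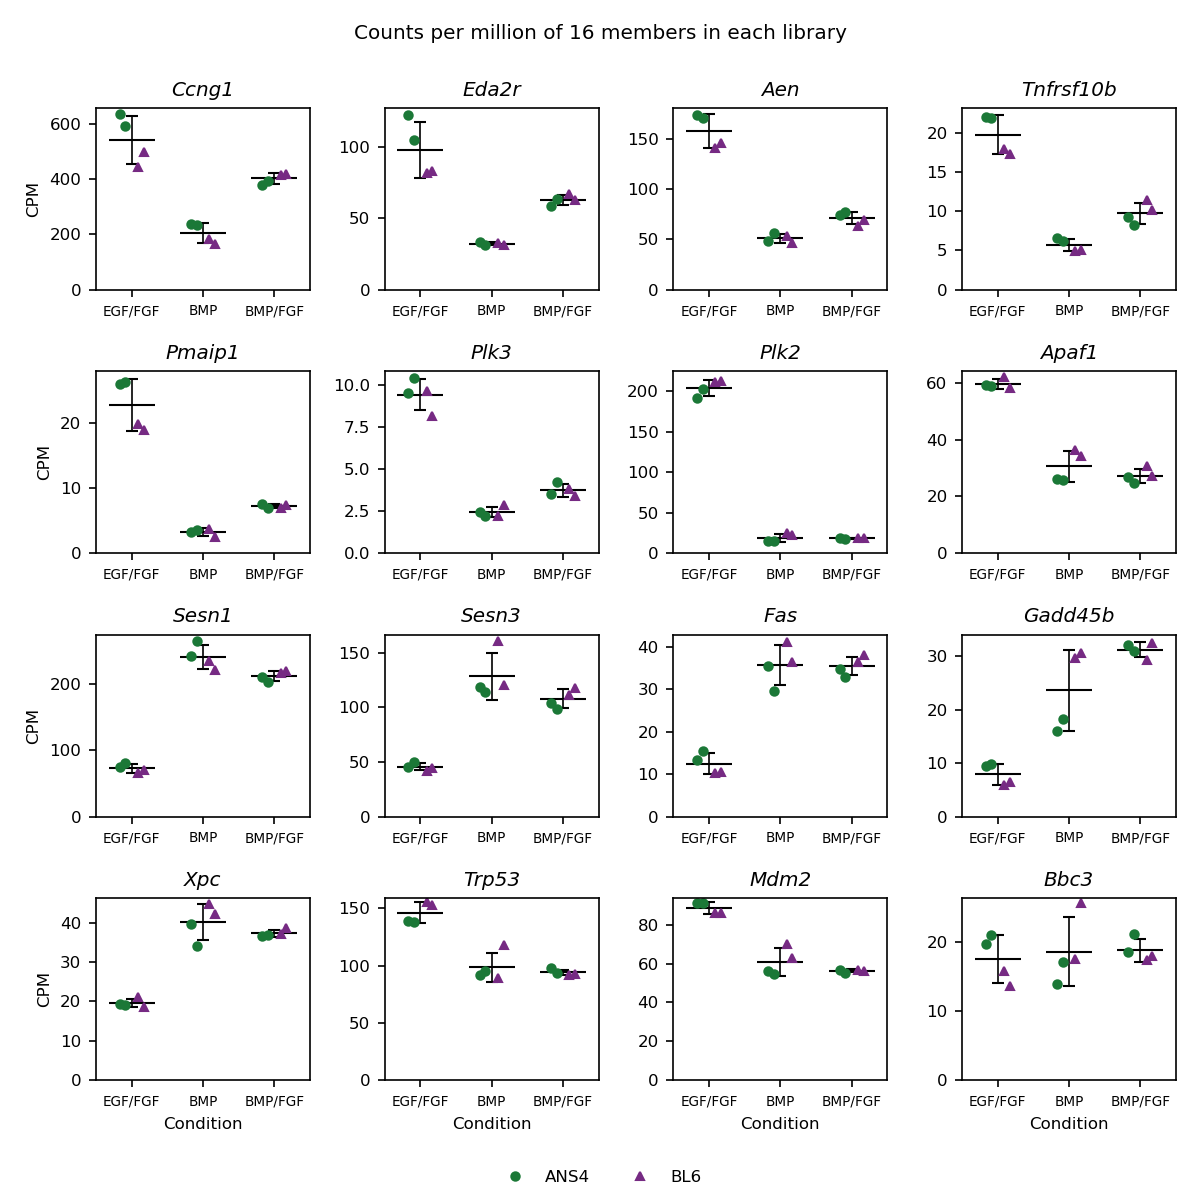
CPM in each library for 16 members. Circles are ANS4 and triangles BL6 libraries, and the black bars give the mean and SD of the 4 libraries per condition. Ccng1, Eda2r, Aen, Tnfrsf10b, Pmaip1 and Plk3 are highest in EGF/FGF, lowest in BMP and between these in BMP/FGF, while Plk2 and Apaf1 are low and Sesn1, Fas and Xpc high in both quiescent states.

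Sestrins and Gadd45 proteins divided by member. Sesn1 and Sesn3, which restrain mTORC1 and oxidative stress, rose in both quiescent states, whereas Sesn2 fell. Sesn1 stood at 74.4, 80.5, 65.2 and 70.4 CPM in EGF/FGF, 241, 263, 234 and 220.3 CPM in BMP and 209, 202, 217 and 218 CPM in BMP/FGF. All 8 quiescent libraries were above all 4 EGF/FGF libraries. The rise was 3.26-fold in BMP (1.70 ± 0.07, FDR = 3.55e-13) and 2.97-fold in BMP/FGF (1.57 ± 0.07, FDR = 1.07e-12). Sesn3 followed with 45.6, 50.1, 42.1 and 44.9 CPM in EGF/FGF, 118, 114, 161 and 121 CPM in BMP and 104, 98.4, 112 and 118 CPM in BMP/FGF, or 1.46 ± 0.09 in BMP (FDR = 7.71e-11) and 1.26 ± 0.09 in BMP/FGF (FDR = 6.74e-10). One BL6 BMP library stood above the other 3.

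Between BMP/FGF and BMP, neither Sesn1 (-0.13 ± 0.07, FDR = 0.14) nor Sesn3 (-0.20 ± 0.09, FDR = 0.0751) was called, although no Sesn1 value overlapped between the 2 states. With library size only both passed, at -0.18 (FDR = 0.0355) and -0.25 (FDR = 0.034), and Sesn3 also passed without BL6 BMP replicate 2, at -0.26 (FDR = 0.0321). Sesn2, a stress-inducible sestrin that senses leucine, ranged over 22.3 to 31.5 CPM in EGF/FGF, 18.6 to 22.7 CPM in BMP and 18 to 20.6 CPM in BMP/FGF and fell by 0.37 on the log2 scale in BMP (FDR = 0.00235). In BL6 alone its fall was not called, at -0.17 (FDR = 0.2), beside -0.57 (FDR = 6.66e-05) in ANS4.

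Gadd45 genes encode small stress proteins that bind cell cycle and MAP kinase signalling proteins, and Gadd45b showed the strongest rise among the 39 members in BMP/FGF. It stood at 9.41, 9.87, 5.85 and 6.41 CPM in EGF/FGF, 16.1, 18.3, 29.7 and 30.6 CPM in BMP and 32.1, 31.1, 29.4 and 32.6 CPM in BMP/FGF. The 4 BMP libraries split by line, with a mean of 17.2 CPM in ANS4 and 30.1 CPM in BL6, whereas the BMP/FGF libraries of both lines lay together. Gadd45b rose 2.91-fold in BMP (1.54 ± 0.19, FDR = 7.13e-07) and 4.01-fold in BMP/FGF (2.00 ± 0.19, FDR = 1.85e-08). The step from BMP to BMP/FGF (0.46 ± 0.17, FDR = 0.0371) lost its call without any 1 of the 4 ANS4 BMP and BMP/FGF libraries or BL6 BMP/FGF replicate 2, at 0.31 to 0.46 (FDR = 0.0685 to 0.144), and by DESeq2, at 0.45 (FDR = 0.139). Gadd45a ranged over 25.2 to 29.9 CPM in EGF/FGF, 29.9 to 51.4 CPM in BMP and 34.2 to 38 CPM in BMP/FGF and rose in BMP (0.49 ± 0.12, FDR = 0.00104), a rise of 0.81 (FDR = 1.42e-05) in BL6 that was not called in ANS4, at 0.12 (FDR = 0.214). Gadd45g went the other way, over 52.4 to 65.4 CPM in EGF/FGF, 27 to 38.2 CPM in BMP and 32 to 43.9 CPM in BMP/FGF, with -0.80 ± 0.11 in BMP (FDR = 2.3e-06) and -0.61 ± 0.11 in BMP/FGF. An opposite-strand gene overlaps an exon of Gadd45a, and whether counting used strand is not given in the sources used here.

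In BMP, DNA repair members rose in 3 of 4 cases, where 40.6% of all genes did. Xpc, the damage sensor of nucleotide excision repair, stood at 19.4, 19, 21.1 and 18.7 CPM in EGF/FGF, 39.6, 34, 44.8 and 42.2 CPM in BMP and 36.5, 36.8, 37.2 and 38.6 CPM in BMP/FGF. It was 2.02-fold higher in BMP (1.02 ± 0.07, FDR = 5.49e-10) and 1.94-fold higher in BMP/FGF (0.96 ± 0.07, FDR = 1.42e-09), and the quiescent states overlapped. Rrm2b, the p53-inducible subunit of ribonucleotide reductase, ranged over 28.7 to 32.8 CPM in EGF/FGF, 45.7 to 51.8 CPM in BMP and 49.8 to 56.3 CPM in BMP/FGF, or 0.61 ± 0.07 in BMP (FDR = 4.45e-07). Ddb2, which recognises ultraviolet lesions, was measured at 2.62 to 4.65 CPM in EGF/FGF, 4.15 to 6.39 CPM in BMP and 4.36 to 7.23 CPM in BMP/FGF and rose in BMP (0.61 ± 0.19, FDR = 0.00727), with an exon that overlaps the opposite-strand gene Acp2.

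The lesion-bypass polymerase Polk was the repair member that fell, over 23 to 26.7 CPM in EGF/FGF, 13 to 15.9 CPM in BMP and 16.8 to 20.7 CPM in BMP/FGF, with -0.82 ± 0.09 in BMP (FDR = 1.57e-07) and 0.36 ± 0.09 from BMP to BMP/FGF (FDR = 0.00415). In BL6 alone the latter was 0.27 (FDR = 0.0746). The rise of Rrm2b from BMP to BMP/FGF (0.21 ± 0.07, FDR = 0.0263) was lost without any 1 of ANS4 BMP replicate 2, both BL6 BMP libraries, ANS4 BMP/FGF replicate 2 and both BL6 BMP/FGF libraries, at 0.18 to 0.20 (FDR = 0.0612 to 0.0883). It was also lost in ANS4 alone, at 0.12 (FDR = 0.288), and with library size only, at 0.16 (FDR = 0.068). For Ddb2 that step was not called (0.28 ± 0.18, FDR = 0.234) but passed without BL6 BMP/FGF replicate 2, at 0.45 (FDR = 0.0465), and its rise in BMP/FGF over EGF/FGF was 1.28 (FDR = 1.29e-05) in ANS4 and 0.47 (FDR = 0.0767) in BL6.

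Among the Bcl2 family members that promote death, Bax, Bak1 and Pmaip1 fell in BMP, Bcl2l11 rose and Bbc3 was not called. Pmaip1, the BH3-only protein Noxa that neutralises Mcl1, stood at 26, 26.4, 19.8 and 18.9 CPM in EGF/FGF, 3.3, 3.49, 3.74 and 2.42 CPM in BMP and 7.49, 6.96, 6.9 and 7.47 CPM in BMP/FGF. The 3 conditions did not overlap. Pmaip1 was 7.09-fold lower in BMP than in EGF/FGF (-2.82 ± 0.13, FDR = 6.86e-13), 2.3-fold higher in BMP/FGF than in BMP (1.20 ± 0.14, FDR = 3.03e-06) and 3.09-fold lower in BMP/FGF than in EGF/FGF (-1.63 ± 0.11, FDR = 3.33e-10). Its rise between the quiescent states, 1.20 on the log2 scale, was the largest among the 39 members.

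Bax, the pore former, stood at 119, 131, 93.7 and 95.1 CPM in EGF/FGF, 58.3, 65.4, 64 and 67.4 CPM in BMP and 76.8, 79.9, 70.8 and 72.2 CPM in BMP/FGF. It fell in BMP (-0.79 ± 0.08, FDR = 6.1e-08) and in BMP/FGF (-0.52 ± 0.08, FDR = 1.17e-05). All 4 BMP/FGF libraries were above all 4 BMP libraries (0.27 ± 0.08, FDR = 0.0128), and this call was lost without ANS4 BMP replicate 1, at 0.20 (FDR = 0.0539). Bak1, the other pore former, ranged over 111 to 119 CPM in EGF/FGF, 75.4 to 93.5 CPM in BMP and 70.5 to 82.8 CPM in BMP/FGF, with -0.51 ± 0.07 in BMP and -0.55 ± 0.07 in BMP/FGF, and an exon of it overlaps the opposite-strand gene Ggnbp1.

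Bbc3, or Puma, stood at 19.7, 21, 15.9 and 13.6 CPM in EGF/FGF, 14, 17.2, 17.5 and 25.7 CPM in BMP and 18.6, 21.1, 17.4 and 17.9 CPM in BMP/FGF. The 3 conditions overlapped, and no comparison was called (0.07 ± 0.16, FDR = 0.687, in BMP, 0.13 ± 0.15, FDR = 0.463, in BMP/FGF, and 0.06 ± 0.15, FDR = 0.803, between these). Each line alone gave a call of opposite sign in BMP, -0.39 (FDR = 0.0053) in ANS4 and 0.50 (FDR = 0.0111) in BL6. Bcl2l11, or Bim, ranged over 27.4 to 29.5 CPM in EGF/FGF, 31.4 to 42.7 CPM in BMP and 32.3 to 37.7 CPM in BMP/FGF and rose in BMP (0.35 ± 0.09, FDR = 0.00171), with 0.55 (FDR = 1.61e-05) in ANS4 and 0.12 (FDR = 0.284) in BL6. In BMP/FGF its difference from EGF/FGF was 0.31 ± 0.09 (FDR = 0.00376).

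The survival side of the Bcl2 family was split. Bcl2 ranged over 23.4 to 27.9 CPM in EGF/FGF, 35.4 to 41.5 CPM in BMP and 37.6 to 46.5 CPM in BMP/FGF and rose in BMP (0.56 ± 0.08, FDR = 3.34e-06) and BMP/FGF (0.78 ± 0.08, FDR = 4.58e-08). Bcl2l1, which encodes Bcl-xL, ranged over 68.2 to 77.8 CPM in EGF/FGF, 87.3 to 105 CPM in BMP and 72.5 to 74.9 CPM in BMP/FGF. It rose in BMP (0.31 ± 0.07, FDR = 0.000269) and was lower again in BMP/FGF than in BMP (-0.29 ± 0.07, FDR = 0.00174), where it overlapped EGF/FGF. Mcl1 ranged over 164 to 180.5 CPM in EGF/FGF, 116 to 126 CPM in BMP and 118 to 122 CPM in BMP/FGF and fell in BMP (-0.53 ± 0.05, FDR = 2.84e-08) and BMP/FGF (-0.50 ± 0.05, FDR = 7.43e-08). The further rise of Bcl2 from BMP to BMP/FGF (0.22 ± 0.08, FDR = 0.0271) was lost without any 1 of ANS4 BMP replicate 2, BL6 BMP replicate 2, ANS4 BMP/FGF replicate 2 and both BL6 BMP/FGF libraries, at 0.19 to 0.22 (FDR = 0.0584 to 0.0857). ANS4 alone gave 0.15 (FDR = 0.212) and library size only 0.18 (FDR = 0.0693).

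The apoptosome pair moved in opposite directions. Apaf1, its scaffold, stood at 59.2, 59, 62.1 and 58.2 CPM in EGF/FGF, 26.2, 25.7, 36.4 and 34.1 CPM in BMP and 26.8, 24.6, 30.6 and 27.2 CPM in BMP/FGF. It was 1.99-fold lower in BMP (-0.99 ± 0.08, FDR = 1.85e-09) and 2.15-fold lower in BMP/FGF (-1.11 ± 0.08, FDR = 4.91e-10), and the quiescent states overlapped. Casp9, the initiator caspase it activates, ranged over 20.5 to 23 CPM in EGF/FGF, 26.6 to 36 CPM in BMP and 26.3 to 28.2 CPM in BMP/FGF and rose in BMP (0.47 ± 0.08, FDR = 4.72e-05) and BMP/FGF (0.33 ± 0.08, FDR = 0.00161).

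**Figure D3:**
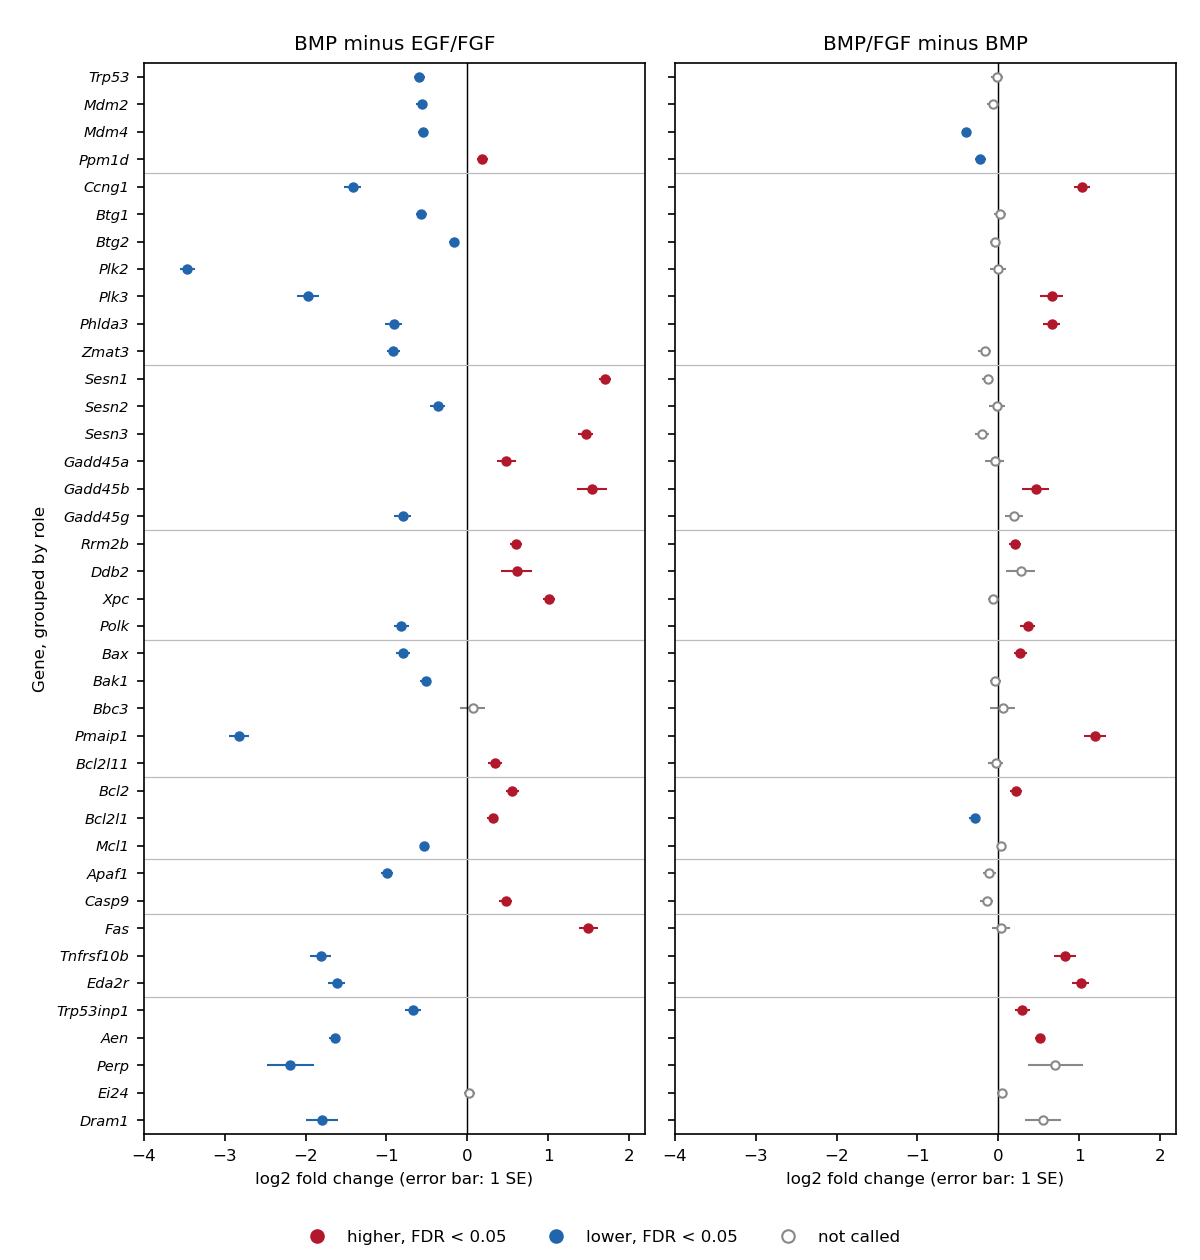
Log2 fold changes of the 39 members, grouped by role, for BMP minus EGF/FGF (left) and BMP/FGF minus BMP (right). Error bars are 1 SE, red and blue points passed FDR under 0.05 as higher and lower, and open points were not called. Plk2 lies farthest left at -3.46 in the left panel, and Pmaip1 farthest right at 1.20 in the right panel.

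Death receptors went both ways as well. Fas, the receptor for Fas ligand, stood at 13.3, 15.5, 10.3 and 10.6 CPM in EGF/FGF, 35.6, 29.6, 41.3 and 36.5 CPM in BMP and 34.8, 33, 36.4 and 38.1 CPM in BMP/FGF. Every quiescent library was above every EGF/FGF library, and BMP and BMP/FGF overlapped. Fas rose 2.83-fold in BMP (1.50 ± 0.12, FDR = 2.66e-09) and 2.9-fold in BMP/FGF (1.54 ± 0.12, FDR = 2.02e-09).

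Tnfrsf10b, the mouse TRAIL receptor, stood at 22, 22, 17.9 and 17.4 CPM in EGF/FGF, 6.6, 6.2, 4.92 and 5.1 CPM in BMP and 9.26, 8.19, 11.4 and 10.1 CPM in BMP/FGF. It was 3.51-fold lower in BMP (-1.81 ± 0.13, FDR = 4.92e-10) and 1.77-fold higher in BMP/FGF than in BMP (0.83 ± 0.14, FDR = 0.000142). Eda2r, the receptor for ectodysplasin A2, stood at 123, 105, 81.5 and 82.9 CPM in EGF/FGF, 33.6, 31.5, 32.4 and 31 CPM in BMP and 58.7, 63.5, 67.3 and 62.6 CPM in BMP/FGF. For both receptors the 3 conditions did not overlap and BMP was lowest. Eda2r fell 3.07-fold in BMP (-1.62 ± 0.10, FDR = 6.06e-11) and rose 2.03-fold from BMP to BMP/FGF (1.02 ± 0.10, FDR = 5.02e-07). Against EGF/FGF, the log2 fold change of BMP/FGF was -0.99 ± 0.12 for Tnfrsf10b and -0.60 ± 0.10 for Eda2r, and the latter was -0.89 in ANS4 and -0.31 in BL6 alone.

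Of the other death and autophagy targets, 4 of 5 fell in BMP, where 38.7% of all genes did. Aen, an apoptosis-enhancing nuclease, stood at 174, 171, 141 and 146 CPM in EGF/FGF, 48.8, 56.1, 53.1 and 46.7 CPM in BMP and 74.8, 77.4, 63.7 and 69.3 CPM in BMP/FGF. Its 3 conditions did not overlap, with -1.64 ± 0.07 in BMP (FDR = 1.34e-13), 0.52 ± 0.07 from BMP to BMP/FGF (FDR = 7.67e-06) and -1.12 ± 0.06 in BMP/FGF against EGF/FGF (FDR = 1.91e-11). Dram1, a lysosomal regulator of autophagy, was measured at low counts, with 3.72, 3.8, 3.13 and 4.48 CPM in EGF/FGF, 1.04, 1.16, 1.34 and 0.859 CPM in BMP and 1.34, 1.82, 1.74 and 1.36 CPM in BMP/FGF. It fell in BMP (-1.80 ± 0.20, FDR = 1.44e-07). The groups did not overlap between BMP and BMP/FGF, yet this step was not called (0.55 ± 0.22, FDR = 0.0566) and passed without BL6 BMP replicate 1 or ANS4 BMP/FGF replicate 1, at 0.63 to 0.66 (FDR = 0.0439 to 0.0465).

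Trp53inp1, a stress protein that assists p53, ranged over 206 to 309 CPM in EGF/FGF, 148 to 161 CPM in BMP and 174 to 195 CPM in BMP/FGF, with -0.67 ± 0.09 in BMP (FDR = 4.03e-06) and 0.30 ± 0.09 from BMP to BMP/FGF (FDR = 0.0184). The latter was lost in ANS4 alone, at 0.18 (FDR = 0.056), and without BL6 BMP/FGF replicate 1 or 2, at 0.24 to 0.26 (FDR = 0.0588 to 0.072), and its lower value in BMP/FGF than in EGF/FGF was -0.67 (FDR = 3.21e-07) in ANS4 but -0.08 (FDR = 0.347) in BL6. Perp, a membrane protein of cell adhesion and death, was at 1.29 to 2.02 CPM in EGF/FGF, 0.215 to 0.498 CPM in BMP and 0.436 to 0.696 CPM in BMP/FGF and fell in BMP (-2.19 ± 0.29, FDR = 1.46e-06), at levels where counting error is large. Ei24, an endoplasmic reticulum protein, was called in none of the 3 comparisons by edgeR, over 208 to 236 CPM in EGF/FGF, 209 to 249.8 CPM in BMP and 222 to 238 CPM in BMP/FGF, with 0.03 ± 0.06 in BMP (FDR = 0.723).

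The lines were also fitted apart. Of the 37 members called between BMP and EGF/FGF, 37 had the same sign in both lines and 32 were called in each line alone, the others being Ppm1d, Btg2, Sesn2, Gadd45a and Bcl2l11. Of the 35 called between BMP/FGF and EGF/FGF, 34 had the same sign in both lines, Phlda3 being the exception, and 30 were called in each line alone. Of the 16 called between BMP/FGF and BMP, 16 had the same sign in both lines but 10 were called in each alone, the others being Ppm1d, Gadd45b, Rrm2b, Polk, Bcl2 and Trp53inp1. Over all 39 members, called or not, signs were opposite in the 2 lines for 2, 5 and 15 members in these comparisons, in the same order. Signs and calls in each line were not counted over all genes. Whether the members were more alike in the lines than other genes was therefore not tested. The single-line fits use the same libraries as the joint fit, so agreement among genes called there is not independent support. Whether the size of the response was unequal in the 2 lines was tested by an interaction term. Between BMP and EGF/FGF, 10 members (25.6%) differed between the lines, where 8.9% of all genes did, and 9 of the 10 were higher in BL6 than in ANS4 relative to their own EGF/FGF level. Between BMP/FGF and BMP, 10 members differed, 5 in each direction, where 13.4% of all genes did. With library size only in place of TMM, the share of all called interactions that were higher in BL6 went from 59.8% to 70.8% in the first comparison and from 49.4% to 27.9% in the second.

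Gadd45b differed most in its response to BMP, with a log2 fold change of 0.83 in ANS4 and 2.24 in BL6, a difference of 1.43 ± 0.16 (FDR = 3.51e-05). Bbc3 fell in ANS4 and rose in BL6, differing by 0.91 ± 0.21 (FDR = 0.0125). Gadd45a rose more in BL6 by 0.70 ± 0.14 (FDR = 0.00583), and Fas by 0.69 ± 0.16 (FDR = 0.0126). Plk2 fell less in BL6, by 0.53 ± 0.11 (FDR = 0.00503), as did Bax by 0.46 ± 0.10 (FDR = 0.00914), Eda2r by 0.40 ± 0.12, Trp53inp1 by 0.39 ± 0.10 and Mdm2 by 0.32 ± 0.10. Mean CPM of Bax in ANS4 and BL6 was 125 and 94.4 in EGF/FGF and 61.8 and 65.7 in BMP. It was 114 and 82.2, then 32.6 and 31.7, for Eda2r and 288 and 206, then 159 and 153, for Trp53inp1. For these genes the lines stood further apart in EGF/FGF than in BMP. Plk2 (197 and 212, then 14.7 and 23.4) and Mdm2 (91.4 and 86.3, then 55.3 and 66.7) were relatively further apart in BMP. Bcl2l11 rose less in BL6, with a difference of -0.41 ± 0.12 (FDR = 0.0433).

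With each of the 12 libraries left out in turn, the line differences of Gadd45b, Gadd45a and Plk2 in BMP kept their calls. That of Bax was lost without ANS4 EGF/FGF replicate 2 or ANS4 BMP replicate 1, at 0.37 to 0.38 (FDR = 0.0631 to 0.0663). That of Bbc3 was lost without either of these or BL6 EGF/FGF replicate 2, at 0.76 to 0.85 (FDR = 0.0626 to 0.0741). For Fas the libraries were ANS4 EGF/FGF replicate 2, BL6 EGF/FGF replicate 1 and ANS4 BMP replicate 2, at 0.54 to 0.66 (FDR = 0.0566 to 0.0928). For Trp53inp1 they were ANS4 EGF/FGF replicate 1, both BL6 EGF/FGF and both ANS4 BMP libraries, at 0.28 to 0.40 (FDR = 0.0658 to 0.125). Bcl2l11 lost its call in 9 of 12 cases (it held only without BL6 BMP replicate 1, BL6 BMP replicate 2 or ANS4 BMP/FGF replicate 2), Eda2r in 10 (it held without ANS4 EGF/FGF replicate 2 or BL6 BMP replicate 2) and Mdm2 in 11 (it held without BL6 BMP replicate 2). Over all 12 cases their differences ranged from -0.45 to -0.39 for Bcl2l11, 0.28 to 0.49 for Eda2r and 0.24 to 0.40 for Mdm2.

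**Figure D4:**
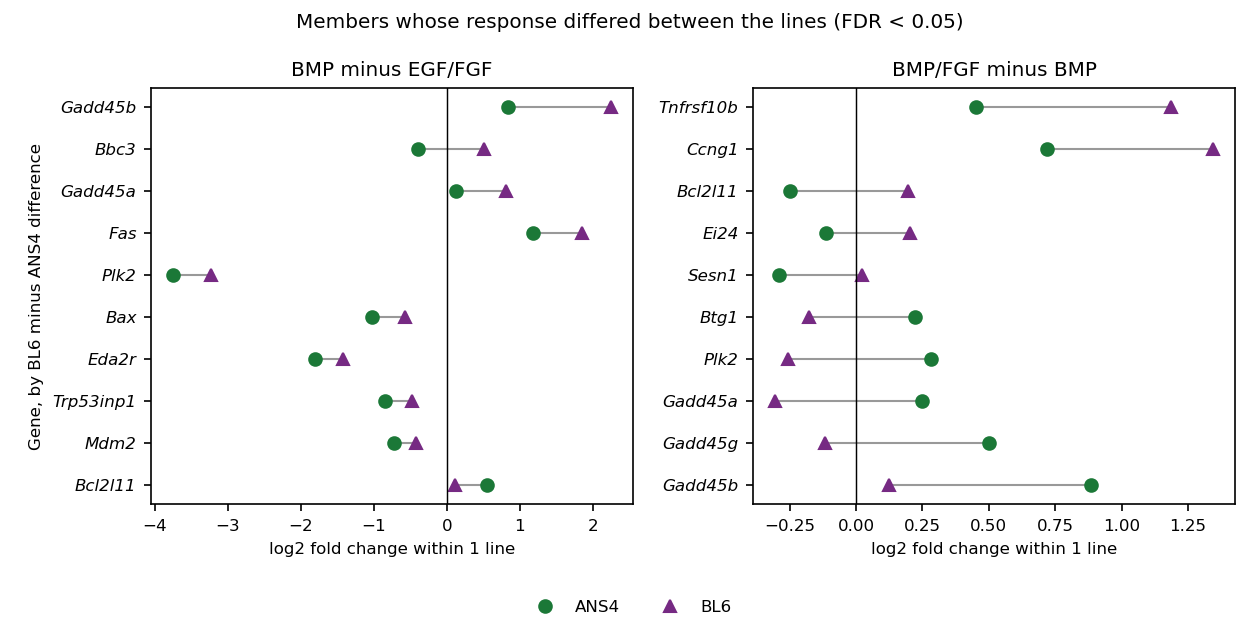
Members whose response differed between the lines at FDR under 0.05, with the log2 fold change in ANS4 (circles) and BL6 (triangles) libraries alone, for BMP minus EGF/FGF (left) and BMP/FGF minus BMP (right). The grey line joins the lines' values. Gadd45b has the longest line on the left, and Plk2, Gadd45a, Gadd45g, Btg1, Bcl2l11, Ei24 and Sesn1 have values on both sides of 0 on the right.

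When FGF2 was added to BMP4, Ccng1 rose in both lines but further in BL6, 1.34 against 0.72 in ANS4, a difference of 0.62 ± 0.09 (FDR = 0.000493). Tnfrsf10b did the same, 1.19 against 0.45 (0.73 ± 0.18, FDR = 0.0131). Gadd45b rose in ANS4 (0.88) and was not called in BL6 (0.12), differing by -0.76 ± 0.13 (FDR = 0.00118). Plk2 and Gadd45a passed in each line with opposite signs, 0.28 and 0.25 in ANS4 and -0.26 and -0.30 in BL6, differing by -0.54 ± 0.12 and -0.55 ± 0.14. The remaining differences, BL6 minus ANS4, were -0.62 ± 0.16 for Gadd45g, -0.40 ± 0.09 for Btg1, 0.44 ± 0.12 for Bcl2l11, 0.32 ± 0.09 for Ei24 and 0.31 ± 0.09 for Sesn1.

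Of these, the calls of Ccng1, Plk2 and Gadd45b held with every library left out. Tnfrsf10b lost its call without ANS4 BMP/FGF replicate 2 or BL6 BMP/FGF replicate 1, at 0.64 to 0.66 (FDR = 0.0545 to 0.0687), and Btg1 without the same libraries, at -0.38 to -0.36 (FDR = 0.0513 to 0.0561). Gadd45a lost it without ANS4 BMP replicate 2, ANS4 BMP/FGF replicate 2 or BL6 BMP/FGF replicate 2, at -0.50 to -0.48 (FDR = 0.0654 to 0.0846). Gadd45g lost it without ANS4 BMP replicate 1 or replicate 1 of BMP/FGF in either line, at -0.60 to -0.45 (FDR = 0.0598 to 0.0741), and Bcl2l11 without ANS4 BMP replicate 2 or the same BMP/FGF libraries, at 0.35 to 0.45 (FDR = 0.0509 to 0.135). For Ei24 the libraries were ANS4 BMP replicate 1, ANS4 BMP/FGF replicate 1 and both BL6 BMP/FGF libraries, at 0.27 to 0.34 (FDR = 0.054 to 0.12). For Sesn1 they were replicate 2 of BMP in either line and all 4 BMP/FGF libraries, at 0.26 to 0.33 (FDR = 0.0517 to 0.125). Averaged over conditions, 1 member differed between the lines, where 1.78% of all genes did: Btg2, at -0.22 ± 0.05 on the log2 scale, BL6 minus ANS4 (FDR = 0.025). That count was 0 without ANS4 EGF/FGF replicate 2, BL6 EGF/FGF replicate 2, ANS4 BMP replicate 2, BL6 BMP replicate 1 or BL6 BMP/FGF replicate 1. An average over conditions can hide a difference present in 1 condition, and line differences within EGF/FGF were not tested apart. There, Aen averaged 172 CPM in ANS4 and 144 CPM in BL6, and Pmaip1 26.2 and 19.4 CPM. Trp53 (138 and 154 CPM) and Mdm4 (94.3 and 113 CPM) went the other way.

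Other genes of the p53 network, 51 of which were tested, were called higher in 18 and lower in 20 cases in BMP (35.3% and 39.2%, beside 40.6% and 38.7% of all genes), 17 and 25 in BMP/FGF against EGF/FGF (33.3% and 49%, beside 40.8% and 37.8%), and 14 and 18 in BMP/FGF against BMP (27.5% and 35.3%, beside 19.9% and 21.2%). The medians were -0.05, -0.16 and -0.07, beside 0.02, 0.02 and -0.004 over all genes. From each list, up to 4 called genes with the largest change are named, leaving out those that averaged under 1 CPM over the 12 libraries. Igfbp3, a secreted binder of insulin-like growth factors, fell (-3.70 ± 0.09, 2264 to 176 CPM, mean of EGF/FGF to mean of BMP). The lipid transfer protein Pltp rose (2.69 ± 0.10, 18.9 to 123 CPM), and the cytokine Lif (-2.64 ± 0.11, 22.6 to 3.66 CPM) and the glutaminase Gls2 (-2.22 ± 0.30, 2.14 to 0.462 CPM) fell. In BMP/FGF against EGF/FGF the checkpoint kinase Chek2 was also among the largest (-1.87 ± 0.09, 31.8 to 8.52 CPM), after Igfbp3 at -2.94, Gls2 at -2.36 and Pltp at 2.26. Between BMP and BMP/FGF, Thbs1, an extracellular matrix protein, fell (-3.13 ± 0.20, 8.67 to 0.959 CPM), while Lif (1.20 ± 0.12, 3.66 to 8.13 CPM), Cdkn1a, the p21 inhibitor of cyclin-dependent kinases (0.93 ± 0.08, 73.8 to 136 CPM), and the peptide transporter Tap1 (0.92 ± 0.10, 26 to 47.2 CPM) rose.

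Other apoptosis genes, 45 of which were tested, were higher in 17 and lower in 20 cases in BMP (37.8% and 44.4%), 16 and 21 in BMP/FGF against EGF/FGF (35.6% and 46.7%), and 13 and 5 in BMP/FGF against BMP (28.9% and 11.1%), to be read against the same shares of all genes, with medians of -0.10, -0.02 and 0.04. Of the largest in BMP, 2 were BH3-only genes that rose, Bmf (3.47 ± 0.13, 3.37 to 37.8 CPM) and Hrk (3.44 ± 0.30, 0.22 to 2.48 CPM), and 2 were the receptor Tnfrsf12a (-2.87 ± 0.13, 38.3 to 5.32 CPM) and the caspase Casp8 (-2.25 ± 0.12, 15.3 to 3.26 CPM), which fell. In BMP/FGF against EGF/FGF they were Bmf (3.42 ± 0.13, 3.37 to 35.4 CPM), the Bcl2 relative Bok (-2.41 ± 0.20, 12.8 to 2.36 CPM), Hrk at 2.37 and Tnfrsf12a at -2.35. Between the quiescent states they were Ngfr, a neurotrophin receptor (1.61 ± 0.32, 0.545 to 1.63 CPM), Hrk (-1.07 ± 0.23, 2.48 to 1.15 CPM), the ubiquitin ligase Birc6 (-0.65 ± 0.07, 167 to 103 CPM) and the kinase Dapk1 (-0.63 ± 0.07, 115 to 72.2 CPM).

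Integrated stress response genes, all 31 tested, were higher in 12 and lower in 12 cases in BMP (38.7% each, close to all genes), 14 and 11 in BMP/FGF against EGF/FGF (45.2% and 35.5%), and 8 and 4 in BMP/FGF against BMP (25.8% and 12.9%), with medians of 0.09, 0.29 and -0.03. In BMP the amino acid and folate enzymes Asns (-1.73 ± 0.08, 45.1 to 13.8 CPM) and Mthfd2 (-2.86 ± 0.13, 38.8 to 5.4 CPM) and the secreted protein Stc2 (-2.23 ± 0.21, 4.76 to 1.02 CPM) fell, and Chac1, a glutathione-degrading enzyme, rose (1.70 ± 0.20, 1.13 to 3.74 CPM). In BMP/FGF against EGF/FGF the largest were Mthfd2 at -3.44, Stc2 at -1.44, Asns at -1.40 and the folate enzyme Aldh1l2 at 1.30. Between the quiescent states the named genes were the kinase Eif2ak2 (0.99 ± 0.09, 48.5 to 93.1 CPM), Stc2 at 0.79, Mthfd2 at -0.57 and the endoplasmic reticulum protein Herpud1 at -0.46.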

How the data were processed

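Bulk RNA-seq of 12 libraries was analysed from the deposited gene table. Per the submitters' processing notes and the study's methods, reads were trimmed with Trim Galore 0.5.0, pseudoaligned to mm10 transcripts with kallisto 0.44.0 and summed to genes. The authors deposited these estimated counts as whole numbers, which were used as given. A table of log2 (rlog) values, made with DESeq2 1.27.32, was not used here. Columns were matched to samples by title.

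Genes were kept by filterByExpr on condition and line (13454 kept, 3911 not), scaled by TMM and fitted over all 12 libraries in edgeR 4.0.16 (R 4.3.3) with glmQLFit and glmQLFTest, two-sided, with Benjamini-Hochberg adjustment and a threshold of 0.05. Line differences used a condition by line model. For single members, log2(CPM + 0.1) was also put through an exact permutation test. CPM used library totals of 18069052 to 19451818, so that estimates of low genes carry counting error, and these estimates are not independent molecules. The fits were tested on simulated data. Alternatives were DESeq2 1.42.0, other scalings, no filter, no line term, a replicate block, 8 libraries only, single lines and leaving out each library.

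Members and other gene lists were chosen with earlier results of these data known. Described library by library were members with FDR under 0.05, an absolute log2 fold change of at least 1 in any comparison and a mean of at least 1 CPM, together with Trp53, Mdm2, Mdm4, Bax and Bbc3. The other members are given by range. From each other list, up to 4 called genes with the largest change and a mean of at least 1 CPM are named.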

Additional observations from a re-analysis of the deposited data

Results flagged for a closer look

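In 4 of the 117 groups of 4 libraries examined (39 members in 3 conditions), 1 library stood apart from the other 3 by Dixon's criterion, and chance alone flags about 1 group in 20. Zmat3 was at 76.9 CPM in BL6 BMP replicate 2, against 55.9 to 58.3 CPM in the other BMP libraries. Sesn3 was at 161 CPM in BL6 BMP replicate 1, against 114 to 121 CPM. Rrm2b was at 51.8 CPM in ANS4 BMP replicate 1, against 45.7 to 46.3 CPM. Mcl1 was lowest in ANS4 BMP/FGF replicate 1 with 118 CPM, and the others were at 122 CPM.

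The response to BMP differed between the lines, by the interaction test, in 10 members. BL6 minus ANS4 differences in log2 fold change were 1.43 for Gadd45b, 0.91 for Bbc3, 0.70 for Gadd45a, 0.69 for Fas, 0.53 for Plk2, 0.46 for Bax, 0.40 for Eda2r, 0.39 for Trp53inp1, 0.32 for Mdm2 and -0.41 for Bcl2l11. In BMP/FGF against BMP the differences were 0.73 for Tnfrsf10b, 0.62 for Ccng1, 0.44 for Bcl2l11, 0.32 for Ei24, 0.31 for Sesn1, -0.40 for Btg1, -0.54 for Plk2, -0.55 for Gadd45a, -0.62 for Gadd45g and -0.76 for Gadd45b. Both comparisons share the BMP libraries, so genes named in each are not independent cases. Summed neuron or neuroblast markers spanned 1127 to 1799 CPM among the BMP libraries. By the same interaction test, 2 of the 5 tested were higher in BL6 and 0 lower in BMP against EGF/FGF. In BMP/FGF against BMP, 0 were higher and 4 lower. Of 6 proliferation markers, 1 was higher and 0 lower in the first comparison, and 0 higher and 4 lower in the second. The part of these markers in the member differences was not tested.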

How the results depend on the processing

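The counts of members called between conditions stayed within 1.5 times the reported count under all alternatives but for the 3 members lower in BMP/FGF than in BMP, which became 6 with library size only and 5 in ANS4 alone. Over all genes, lower calls in that comparison went from 2856 to 3406 with library size only, and higher calls from 2682 to 2176. In ANS4 alone 2475 genes were lower and 2308 higher. The cause of the change in the member count was not tested. Over all alternatives, members lower in BMP against EGF/FGF numbered 22 to 25 and higher 11 to 13, lower in BMP/FGF against EGF/FGF 20 to 24 and higher 10 to 11, and higher in BMP/FGF against BMP 10 to 16. Replicate numbers did not pair the libraries: differences between replicates 1 and 2 correlated between conditions at -0.08 to 0.06. With a replicate block the 3 comparisons gave 13 higher and 24 lower, 11 and 23, and 12 and 3.

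Line differences depended more on single libraries, in these members as over all genes. In BMP against EGF/FGF the 10 calls became 6 with only the 8 libraries compared, 7 with a replicate block, and 4 to 13 with 1 library left out. The count was 4 without ANS4 BMP replicate 1, 5 without ANS4 BMP replicate 2, ANS4 EGF/FGF replicate 2 or either BL6 EGF/FGF library, and 6 without ANS4 EGF/FGF replicate 1. In BMP/FGF against BMP the 10 calls became 9 with a replicate block and 4 to 14 with 1 library left out, with 4 without BL6 BMP/FGF replicate 1 and 6 without either ANS4 BMP/FGF library. In those cases the lone library was assumed to vary like the other groups. Calls over all genes moved as well. In BMP against EGF/FGF, 1198 became 618 with only the 8 libraries compared and 1023 with a replicate block. In BMP/FGF against BMP, 1803 became 1615 with a replicate block. The 1 member differing between the lines on average became 4 by the DESeq2 Wald test and 0 to 2 with 1 library left out, with 2 without ANS4 BMP/FGF replicate 1. Among values called in either fit, directions turned in 4 cases: Bbc3 in BMP against EGF/FGF was -0.39 in ANS4 alone, Phlda3 in BMP/FGF against EGF/FGF was 0.064 in BL6 alone, and Plk2 and Gadd45a in BMP/FGF against BMP were 0.28 and 0.25 in ANS4 alone. Depth limits Perp and Dram1 most, with fewer than 5 CPM in all libraries.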
